A study of Mus musculus with 36 samples.

Results

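The CC chemokines Ccl2, Ccl5, Ccl7, Ccl8 and Ccl11 and the CX3C chemokine Cx3cl1, known as fractalkine, were followed in RNA newly made by NIH-3T3, a long-established fibroblast line from mouse embryos. The members were all probe sets annotated to 1 of these 6 symbols: 9 probe sets, 4 of them for Cx3cl1, among the 18193 genes that the array measures under a single symbol. RNA made in a set window was labelled with 4-thiouridine (4sU), a nucleoside that living cells build into new transcripts, then separated and hybridised to Affymetrix arrays. The 12 groups of 3 arrays each crossed IFN alpha, IFN gamma (each at 100 U/ml) and mock treatment with 4 labelling windows: 0-30, 30-60 and 150-180 min with 500 µM 4sU, and a lower concentration of 200 µM for 0-60 min. Windows were counted from the start of treatment, which lasted 30 min, 1 h or 3 h in all and ended with the window. All groups came from the same cell line, plated 24 h before treatment. Arrays are numbered within a group and nothing says that they came from separate cultures, so the p-values here speak only of array-to-array spread. The array values cannot tell fewer expressing cells apart from less RNA per cell.

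Chemokines are small secreted proteins that guide leukocytes along concentration gradients by binding G protein-coupled receptors. The CC family carries adjacent cysteines near its amino terminus, whereas fractalkine, the CX3C member, sits on a mucin stalk anchored in the membrane and can be shed by the proteases ADAM10 and ADAM17. Interferons reach such genes through transcription factors of the STAT and IRF families. Fibroblasts are a known source of Ccl2 and Ccl7, whose transcription also responds to NF-kB, AP-1 and serum.

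The genes split into different patterns. Ccl2 and Ccl7 were already high under mock, and by 150-180 min they were 3.59- to 6.75-fold higher than mock under the interferons. Ccl8, which entered the test only through its IFN gamma arrays of 150-180 min, was highest in that window under IFN gamma, with IFN alpha between IFN gamma and mock. Ccl11, which also entered through IFN gamma arrays, and Cx3cl1 rose under IFN gamma, and in no window did they pass the test under IFN alpha. Ccl5 stayed at background in all 36 arrays.

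The promoters of Ccl8 and Cx3cl1 are shown because these were the 2 of the 6 members that matched the promoter table used here. Each sequence, from RefSeq on GRCm38.p6, runs 5′ to 3′ on the plus strand over 300 bases, 250 before the gene start and 50 from it. Capitals mark the TATA box letters TATAAA and, in Ccl8, a match to the IRF core letters AANNGAAA on the minus strand. The Ccl8 window is chr11:82114935-82115234 and the Cx3cl1 window is chr8:94771930-94772229.
Ccl8: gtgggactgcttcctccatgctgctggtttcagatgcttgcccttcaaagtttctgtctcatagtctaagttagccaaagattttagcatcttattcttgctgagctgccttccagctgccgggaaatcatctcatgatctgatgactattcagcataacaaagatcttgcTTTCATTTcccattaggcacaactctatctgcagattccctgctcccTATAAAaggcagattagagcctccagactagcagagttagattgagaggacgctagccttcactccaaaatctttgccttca
Cx3cl1: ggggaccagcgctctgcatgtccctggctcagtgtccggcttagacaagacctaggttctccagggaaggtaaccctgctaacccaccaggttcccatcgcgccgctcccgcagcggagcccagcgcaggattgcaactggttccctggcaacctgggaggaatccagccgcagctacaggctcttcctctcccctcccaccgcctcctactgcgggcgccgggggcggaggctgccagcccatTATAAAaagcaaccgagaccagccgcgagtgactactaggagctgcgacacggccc

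In the Ccl8 window, counting the first base of the gene as 0, the IRF core match lay at -79 to -72 and TATAAA at -32 to -27. In the Cx3cl1 window TATAAA lay at -6 to -1. Further consensus motifs were searched on both strands without a match in either window: the gamma-activated site (GAS) as TTCNNNGAA, the interferon-stimulated response element (ISRE) as GAAANNGAAA, and NF-kB as GGGNNNNNCC. Among 32851 promoters of the same length, 8.3% held the GAS letters, 3.44% the ISRE letters and 50.8% the NF-kB letters. The IRF core letters, which the ISRE letters contain, were in 23.9% and TATAAA in 13.6%. The IRF core and TATA searches were added after these sequences had been seen, and a match to letters is not a binding site.

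Values are log2 units from the deposited normalisation (GCRMA), a difference of 1 being 2-fold. A probe set was kept where it passed 4 in at least 3 arrays, and each gene was read from its brightest kept probe set, which left 9549 genes for limma. Ccl5 did not pass, so 5 of the 6 members were tested. Called means an adjusted p under 0.05 over all tested genes, and errors on differences are standard errors of the fit. Cells matched the label: all 7 fibroblast markers passed the filter, at a median mean level of 11.75, led by Vim at 13.15. None of 5 T or NK cell, 5 endothelial or 5 epithelial markers passed, and of 8 macrophage markers Cd14 (6.17) did. Arrays of a group correlated at 0.970 to 0.995 outside the mock 0-60 min group, where the lowest correlation was 0.910. In that group array 1 had a Gapdh 3′ minus 5′ signal of 2.67 log2, against -0.57 to 0.73 in all other arrays. At 30-60 min array 2 had 0.59 under mock, 0.73 under IFN alpha and 0.56 under IFN gamma. Arrays 1 and 3 of that window had -0.57 to -0.01. IFN gamma array 3 of 150-180 min had 0.51. The part of these differences in the spread of the members was not tested.

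**Figure D1:**
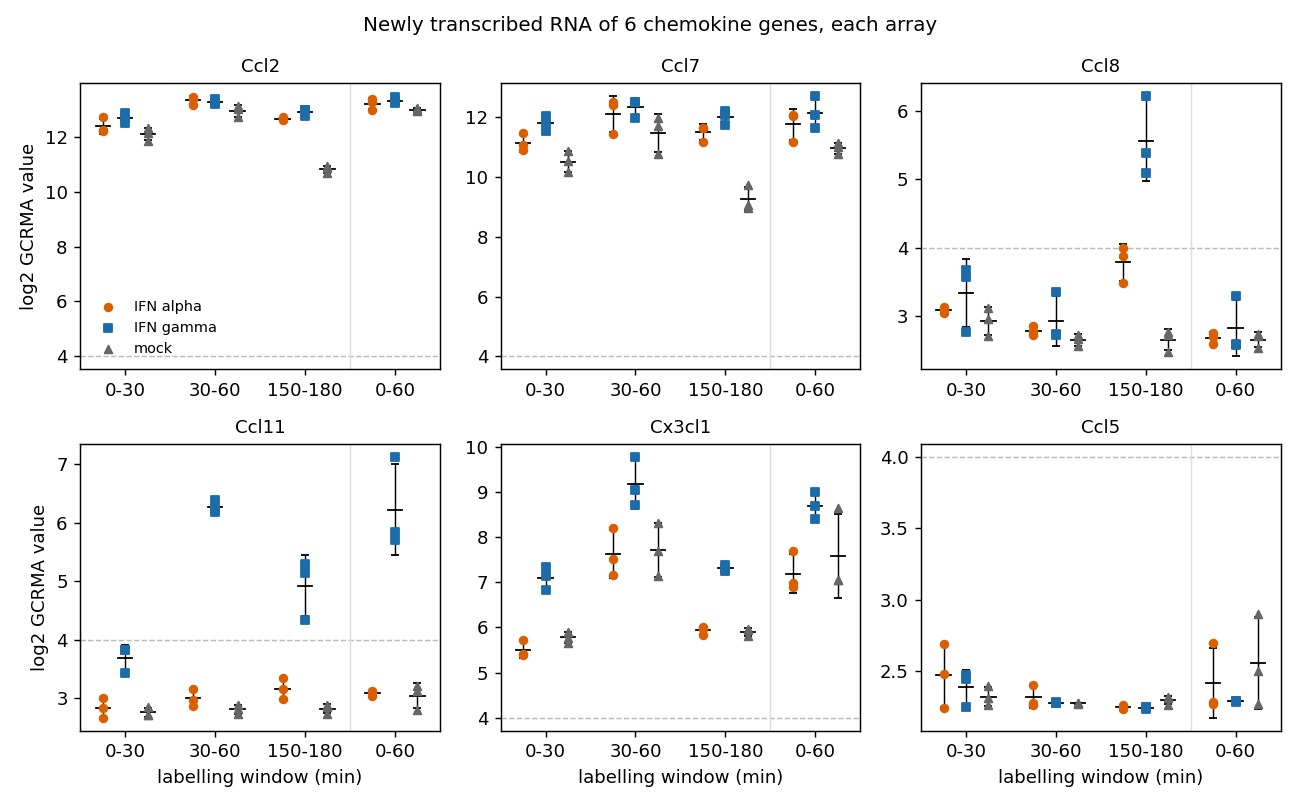
Log2 GCRMA values (y axis) of the 6 chemokine genes in each array by labelling window in minutes (x axis), with IFN alpha (circles), IFN gamma (squares) and mock (triangles) side by side; bars are the mean ± SD of 3 arrays and the dashed line is the filter at 4. Ccl2 and Ccl7 lie far above the filter in every group, Ccl11 passes it only in IFN gamma arrays, and Ccl5 never does.

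Ccl2, the monocyte attractant that signals through CCR2, differed from mock by at most 1.50-fold in the windows of the first hour and by far more at 150-180 min. At 0-30 min it had 12.71, 12.21 and 12.24 under IFN alpha and 12.87, 12.51 and 12.67 under IFN gamma, against 12.31, 11.86 and 12.14 under mock. The IFN gamma arrays lay above every mock array, and the IFN alpha arrays overlapped them. The IFN gamma difference was 0.58 ± 0.14 (1.50-fold, limma adjusted p = 0.030) and the IFN alpha difference 0.28 ± 0.14 (adjusted p = 1). At 30-60 min the values were 13.39, 13.16 and 13.46 under IFN alpha and 13.24, 13.19 and 13.40 under IFN gamma, against 13.01, 12.71 and 13.13 under mock. Both interferon groups stood above all mock arrays, by 0.39 ± 0.14 for IFN alpha (adjusted p = 0.19, and 0.0033 with array number as a block) and 0.33 ± 0.14 for IFN gamma (adjusted p = 0.22, and 0.0082 with the block). The blocked fits are given because same-numbered arrays of this window deviated together.

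At 150-180 min Ccl2 read 12.61, 12.74 and 12.65 under IFN alpha and 12.96, 12.98 and 12.75 under IFN gamma, against 10.92, 10.68 and 10.87 under mock. Every interferon array lay above every mock array. Ccl2 was 1.84 ± 0.14 higher under IFN alpha (3.59-fold, limma adjusted p = 3.1e-12) and 2.07 ± 0.14 higher under IFN gamma (4.21-fold, adjusted p = 1.7e-13). IFN alpha minus IFN gamma was -0.23 ± 0.14 (adjusted p = 0.83), although the 2 groups did not overlap. In the 0-60 min window the values were 13.00, 13.38 and 13.26 under IFN alpha and 13.22, 13.45 and 13.28 under IFN gamma, against 12.98, 13.07 and 12.93 under mock. The IFN gamma arrays stood above mock by 0.33 ± 0.14 (adjusted p = 0.16, and 0.0078 with the block), and the IFN alpha arrays, 0.22 ± 0.14 above mock on average (adjusted p = 0.46), overlapped it.

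Ccl7, which attracts monocytes through CCR2 and other CC receptors, followed the same course with wider spread. At 0-30 min it had 11.49, 10.90 and 11.07 under IFN alpha and 12.05, 11.53 and 11.80 under IFN gamma, against 10.86, 10.15 and 10.55 under mock. All treated arrays lay above all mock arrays. The IFN gamma difference of 1.27 ± 0.30 (2.42-fold) was called (limma adjusted p = 0.033), and the IFN alpha difference of 0.63 ± 0.30 was not (adjusted p = 1). At 30-60 min the values were 12.51, 11.43 and 12.42 under IFN alpha and 12.52, 11.99 and 12.51 under IFN gamma, against 11.72, 10.76 and 11.97 under mock. Array 2 was the lowest of its group under all 3 treatments. The differences of 0.64 ± 0.30 for IFN alpha and 0.86 ± 0.30 for IFN gamma missed the threshold (adjusted p = 0.53 and 0.11) and passed it with the block (0.041 and 0.0018).

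At 150-180 min Ccl7 read 11.19, 11.66 and 11.65 under IFN alpha and 11.75, 12.21 and 12.07 under IFN gamma, against 9.07, 8.98 and 9.73 under mock. The treated and mock arrays were well apart. Ccl7 was 2.24 ± 0.30 higher under IFN alpha (4.72-fold, limma adjusted p = 2.2e-06) and 2.75 ± 0.30 higher under IFN gamma (6.75-fold, adjusted p = 3.0e-08). The 2 interferon groups did not overlap, but their difference of -0.52 ± 0.30, IFN alpha minus IFN gamma, missed the threshold (adjusted p = 0.81). Over 0-60 min Ccl7 had 11.17, 12.09 and 12.03 under IFN alpha and 11.63, 12.72 and 12.08 under IFN gamma, against 11.13, 10.99 and 10.76 under mock. The rise under IFN gamma was 1.18 ± 0.30 (adjusted p = 0.013), and the call was lost without IFN gamma array 2 (0.13) and with only the arrays of the window (0.15). Under IFN alpha the difference was 0.80 ± 0.30 (adjusted p = 0.25, and 0.0095 with the block).

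Ccl8, which in mice signals through CCR8, passed the filter only through the 3 IFN gamma arrays of 150-180 min, so its difference there was a condition of being tested. It had 3.997, 3.48 and 3.88 under IFN alpha and 6.21, 5.08 and 5.39 under IFN gamma, against 2.72, 2.76 and 2.48 under mock. The 3 groups were apart, with IFN alpha between IFN gamma and mock, and mock far below the filter, so the folds are over background. The difference was 2.91 ± 0.24 under IFN gamma (7.51-fold, limma adjusted p = 2.5e-11) and 1.13 ± 0.24 under IFN alpha (2.19-fold, adjusted p = 0.0019). IFN alpha minus IFN gamma was -1.78 ± 0.24 (adjusted p = 1.5e-06). After adding 16 to the linear values, which damps differences near background, the IFN alpha difference was 0.42 (adjusted p = 0.052). Its means in the other 9 groups were 2.65 to 3.34, and no difference among them within a window was called.

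Ccl11, or eotaxin, draws eosinophils through CCR3. It passed 4 only in 9 arrays, all IFN gamma, so a difference under IFN gamma was again a condition of being tested and the folds are over background. At 0-30 min it had 2.99, 2.83 and 2.66 under IFN alpha and 3.81, 3.82 and 3.42 under IFN gamma, against 2.70, 2.71 and 2.84 under mock. The IFN gamma arrays were already above the rest, by 0.93 ± 0.24 over mock (limma adjusted p = 0.061, and 0.027 with the block), though still under the filter. At 30-60 min it had 2.86, 3.15 and 2.97 under IFN alpha and 6.19, 6.24 and 6.40 under IFN gamma, against 2.81, 2.88 and 2.73 under mock. The IFN gamma arrays lay close together, 3.47 ± 0.24 above mock (11.1-fold, adjusted p = 7.5e-13).

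At 150-180 min Ccl11 had 3.33, 2.97 and 3.14 under IFN alpha and 5.14, 4.33 and 5.30 under IFN gamma, against 2.72, 2.85 and 2.87 under mock. IFN gamma was 2.11 ± 0.24 above mock (4.31-fold, limma adjusted p = 5.3e-08), and IFN alpha was 0.34 ± 0.24 above mock (adjusted p = 0.85) without overlapping it. Over 0-60 min the IFN alpha values were 3.09, 3.11 and 3.02 and the IFN gamma values 5.71, 7.12 and 5.85, against 3.20, 3.11 and 2.80 under mock. The IFN gamma rise there was 3.19 ± 0.24 (9.13-fold, adjusted p = 1.2e-11), and the IFN alpha arrays overlapped mock. IFN alpha minus IFN gamma was -3.28 ± 0.24 at 30-60 min (adjusted p = 8.5e-12), -1.77 ± 0.24 at 150-180 min (2.1e-06) and -3.15 ± 0.24 over 0-60 min (1.1e-10), whereas at 0-30 min it was -0.85 ± 0.24 (0.13).

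Cx3cl1, the fractalkine gene, passed the test under IFN gamma in every window, though not in every alternative fit. At 0-30 min its tested probe set (1415803_at) had 5.72, 5.40 and 5.40 under IFN alpha and 7.33, 6.82 and 7.13 under IFN gamma, against 5.77, 5.66 and 5.91 under mock. At 30-60 min it had 7.16, 8.21 and 7.53 under IFN alpha and 8.71, 9.77 and 9.06 under IFN gamma, against 7.13, 8.33 and 7.70 under mock. Array 2 was the highest of all 3 treatments in that window, and IFN gamma exceeded the same-numbered mock array by 1.35 to 1.57. At 150-180 min it had 6.01, 5.97 and 5.84 under IFN alpha and 7.26, 7.38 and 7.31 under IFN gamma, against 5.97, 5.80 and 5.94 under mock. The IFN gamma arrays lay above all others in each of these 3 windows.

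The IFN gamma differences of Cx3cl1 from mock were 1.32 ± 0.32 at 0-30 min (2.49-fold, limma adjusted p = 0.040), 1.46 ± 0.32 at 30-60 min (2.75-fold, 0.0028) and 1.41 ± 0.32 at 150-180 min (2.66-fold, 0.0039). The IFN alpha differences were -0.27, -0.09 and 0.04 in the same windows, each with a standard error of 0.32 (adjusted p = 1, 1 and 0.99). IFN alpha minus IFN gamma was -1.59 ± 0.32 at 0-30 min (adjusted p = 0.0066, and 0.069 without IFN gamma array 1), -1.55 ± 0.32 at 30-60 min (0.0014) and -1.38 ± 0.32 at 150-180 min (0.0058). With only the arrays of the window, the IFN gamma call at 30-60 min was lost (adjusted p = 0.056).

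Over 0-60 min Cx3cl1 had 7.69, 6.99 and 6.90 under IFN alpha and 9.00, 8.69 and 8.41 under IFN gamma, against 8.66, 7.05 and 7.05 under mock. Mock array 1, the array with the high Gapdh 3′ signal, reached into the IFN gamma range. The IFN gamma difference was 1.11 ± 0.32 (limma adjusted p = 0.031) with that array and 1.65 (adjusted p = 0.00017) without it. Leaving out mock array 2 or 3, or IFN gamma array 1 or 2, gave 0.84 to 1.12 and lost the call (adjusted p = 0.087, 0.093, 0.13 and 0.085). It was lost as well with only the arrays of the window (adjusted p = 0.44) and with no filter (0.062). The IFN alpha difference from mock was -0.39 ± 0.32 (adjusted p = 0.59). IFN alpha minus IFN gamma was -1.50 ± 0.32 (adjusted p = 0.0030, and 0.24 with only the arrays of the window).

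The other Cx3cl1 probe sets gave the pattern in part. In the fit over all kept probe sets, 1415804_at rose under IFN gamma by 1.46 ± 0.28 at 30-60 min (limma adjusted p = 0.00077) and by 2.50 ± 0.28 over 0-60 min. Probe set 1421610_at rose by 1.84 ± 0.41 over 0-60 min (adjusted p = 0.0048) and was 1.16 ± 0.41 higher at 30-60 min (adjusted p = 0.13). At 150-180 min neither was called, at 0.53 ± 0.28 (adjusted p = 0.46) and 0.05 ± 0.41 (0.99), so the late IFN gamma rise rests on the tested probe set. At 0-30 min they gave 0.52 ± 0.28 (adjusted p = 1) and 1.17 ± 0.41 (0.70). In this fit the tested probe set missed the threshold there as well (1.32 ± 0.33, adjusted p = 0.064). The x_at probe set 1441884_x_at stayed between 2.48 and 3.18 in all 36 arrays.

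**Figure D2:**
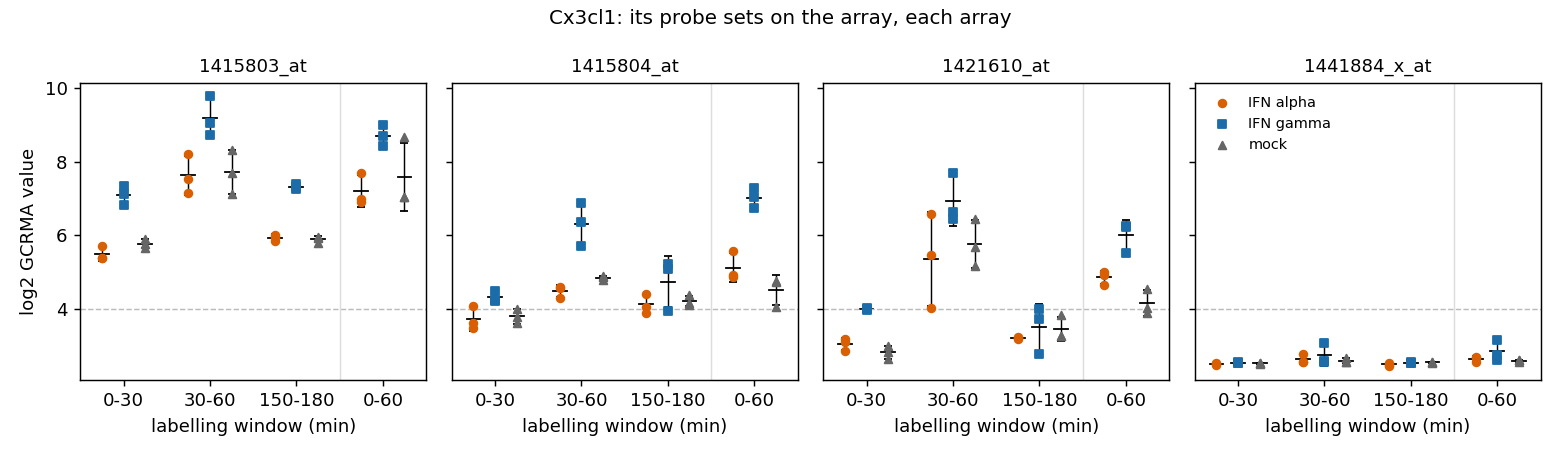
Log2 GCRMA values (y axis) of the 4 Cx3cl1 probe sets in each array by labelling window in minutes (x axis), with IFN alpha, IFN gamma and mock side by side; bars are the mean ± SD of 3 arrays and the dashed line is the filter at 4. The IFN gamma squares lie above mock in the first 3 probe sets at 30-60 min on average, at 150-180 min without overlap only in 1415803_at, and the fourth probe set stays at background.

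Ccl5, the T cell and monocyte attractant also called RANTES, had 2.23 to 2.90 in all 36 arrays and never passed the filter. In the fit without a filter, 0 of its 18 comparisons were called.

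The counts of called members read against the background as follows, with the share of all tested genes called in the same direction in parentheses. IFN alpha raised 0 of 5 tested members above mock at 0-30 min (0.377%), 0 at 30-60 min (2.4%), 3 at 150-180 min (2.58%) and 0 over 0-60 min (1.91%). At an unadjusted p under 0.05 the IFN alpha counts were 2, 2, 3 and 1. IFN gamma raised 3 above mock at 0-30 min (0.754%), 2 at 30-60 min (3.82%), 5 at 150-180 min (4.37%) and 3 over 0-60 min (3.83%). These counts are from the fit without a block. With array number as a block, Ccl2 and Ccl7 were also called at 30-60 min under both interferons, and Ccl7 over 0-60 min under IFN alpha. Under IFN gamma the block added Ccl11 at 0-30 min and Ccl2 over 0-60 min. Ccl8 and Ccl11 entered through IFN gamma arrays, so these counts describe the tested genes only. IFN alpha was lower than IFN gamma for 1 member at 0-30 min (0.524%), 2 at 30-60 min (2.72%), 3 at 150-180 min (2.8%) and 2 over 0-60 min (1.65%). The IFN alpha and IFN gamma comparisons share the mock arrays. At 150-180 min the median difference of the 5 tested members from mock was 1.13 for IFN alpha and 2.11 for IFN gamma. The medians of all genes were -0.10 and -0.10. These member medians were the values of Ccl8 and Ccl11, respectively. Both genes entered through IFN gamma arrays, so the member medians are not like those of all genes.

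Overlap between groups was counted as well. Treated and mock arrays did not overlap for 4 of 5 members at 150-180 min under IFN alpha (22.8% of all genes) and for all 5 under IFN gamma (29.6%). At 0-30 min the counts were 1 under IFN alpha (8.36%) and 4 under IFN gamma (11%), and at 30-60 min 1 (14.1%) and 4 (19.4%). Over 0-60 min they were 1 (6.89%) and 3 (14.5%). IFN alpha and IFN gamma arrays did not overlap for 3 members at 0-30 min (8.57%), 2 at 30-60 min (16.1%), all 5 at 150-180 min (20.8%) and 2 over 0-60 min (15.4%). Ccl8 and Ccl11 entered the test through IFN gamma arrays, while their IFN alpha and mock arrays stayed under the filter. Their separation under IFN gamma was therefore tied to entry, and counts that include them are not like the shares of all genes.

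**Figure D3:**
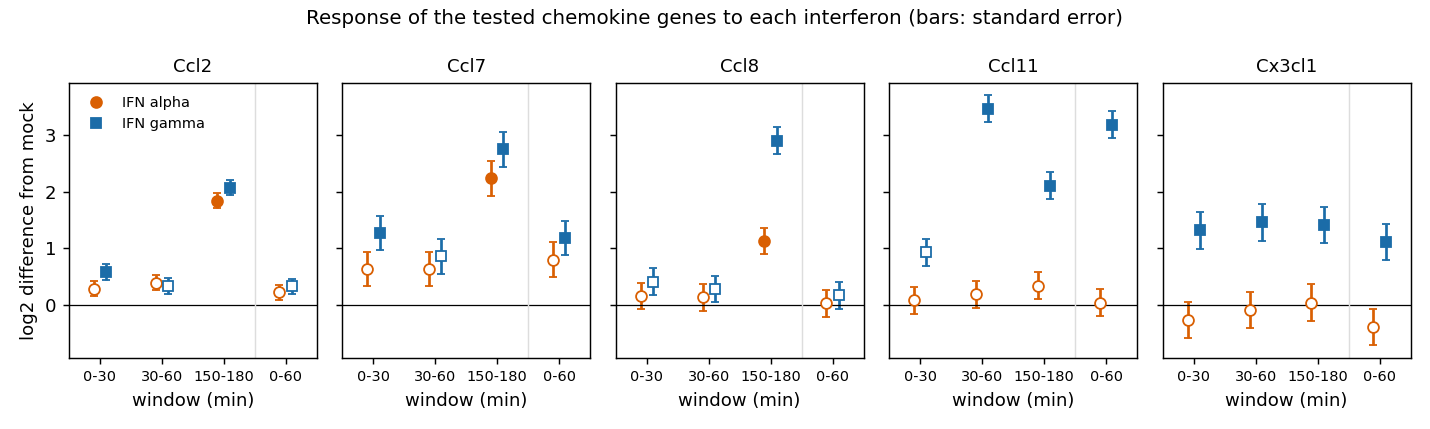
Log2 difference from mock (y axis) of the 5 tested chemokine genes by labelling window in minutes (x axis), for IFN alpha (circles) and IFN gamma (squares); bars are standard errors of the fit with 3 arrays per group, and filled symbols have an adjusted p under 0.05. Ccl2, Ccl7 and Ccl8 have their largest differences at 150-180 min under both interferons, whereas Ccl11 peaks at 30-60 min under IFN gamma and the tested probe set of Cx3cl1 is nearly level.

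The 0-30 min calls under IFN gamma were among the least firm in the fits without a block. The Ccl2 call was lost without mock array 2 or 3 or IFN gamma array 1 or 3 (adjusted p = 0.46, 0.10, 0.37 and 0.11), and with only the arrays of the window (0.14). The Ccl7 call was lost without the same arrays (adjusted p = 0.35, 0.13, 0.31 and 0.12). The Cx3cl1 call was lost on leaving out any 1 of the 6 arrays (adjusted p = 0.06 to 0.33). All these calls were lost with no filter, and those of Ccl7 and Cx3cl1 over all kept probe sets (0.052 and 0.064). The Ccl2 call was lost with a common array median, and the Cx3cl1 call after adding 16. On leaving out these arrays the difference remained positive, at 0.46 to 0.60 for Ccl2, 1.09 to 1.29 for Ccl7 and 1.20 to 1.45 for Cx3cl1. With array number as a block none of these calls was lost. IFN gamma exceeded the same-numbered mock array by 0.54 to 0.65 for Ccl2, 1.19 to 1.37 for Ccl7 and 1.17 to 1.56 for Cx3cl1.

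Whether a response itself differed between windows was tested as interferon minus mock in the later window, less the same in the earlier one. From 0-30 to 30-60 min the response to IFN alpha was called for 0 of 5 members by limma, 0 also at an unadjusted p under 0.05 (1.31% of all genes were called), and that to IFN gamma for Ccl11 alone among the 5 (1.5%). From 30-60 to 150-180 min the response to IFN alpha changed for Ccl2 (0.471% of all genes), and Ccl7 and Ccl8 had differences of 1.60 ± 0.43 and 1.00 ± 0.33 (adjusted p = 0.12 and 0.45). With array number as a block Ccl7 was called too (adjusted p = 0.00061), although the numbers did not pair the 150-180 min arrays, and likewise without mock 30-60 min array 2 (0.015). For IFN gamma it changed for 4 members (1.91%): Ccl2, Ccl7 and Ccl8 had larger late differences from mock and Ccl11 a smaller one. The mock levels of Ccl2 and Ccl7 were lower at 150-180 than at 30-60 min. Ccl8 and Ccl11 entered the test through IFN gamma arrays. On its tested probe set the Cx3cl1 response to IFN gamma differed by -0.05 ± 0.46 between these windows (adjusted p = 1). In the fit over all kept probe sets, 1415804_at differed by -0.93 ± 0.40 and 1421610_at by -1.11 ± 0.58 (limma adjusted p = 0.47 and 0.67).

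Mock levels differed between windows too. Each window has its own arrays, so time cannot be told apart from other differences between the sets of arrays. Ccl2 averaged 12.10 at 0-30 min, 12.95 at 30-60 min and 10.82 at 150-180 min, and Ccl7 averaged 10.52, 11.48 and 9.26. Cx3cl1 averaged 5.78, 7.72 and 5.90. From the first window to the next, Ccl2 differed by 0.85 ± 0.14, Ccl7 by 0.96 ± 0.30 and Cx3cl1 by 1.94 ± 0.32 (limma adjusted p = 5.4e-06, 0.0075 and 7.6e-06), while the median of all genes differed by -0.52. From 30-60 to 150-180 min they differed by -2.12 ± 0.14, -2.23 ± 0.30 and -1.82 ± 0.32 (adjusted p = 1.8e-13, 2.8e-07 and 1.5e-05), while the median of all genes differed by 0.55. Of all genes, 9.05% were called higher in the first step and 10.7% lower in the second, as these 3 of 5 members were. Ccl8 and Ccl11 stayed at background in mock. The Ccl7 change to 30-60 min missed the threshold without mock 0-30 min array 2 (adjusted p = 0.051) or mock 30-60 min array 3 (0.068).

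Ordered by group mean, Ccl2 was lowest in mock 150-180 min and Ccl7 likewise, and in both genes that group was the only one whose range stood apart from the next. Ccl8 had IFN gamma 150-180 min at the top, apart from IFN alpha 150-180 min, below which ranges overlapped their neighbours. Ccl11 ran from IFN gamma 30-60 and 0-60 min, which overlapped, to IFN gamma 150-180 min and then IFN gamma 0-30 min, each apart. All IFN alpha and mock groups followed with overlapping ranges. Cx3cl1 had IFN gamma 30-60 and 0-60 min at the top, overlapping, then a run of overlapping groups from mock 30-60 min down to IFN gamma 0-30 min. The IFN alpha and mock groups of 150-180 and 0-30 min lay apart below these.

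Ccl2, Ccl7, Ccl11 and Ccl8 belong to 1 run of 6 protein-coding chemokine genes on chromosome 11, in the order Ccl2, Ccl7, Ccl11, Ccl12, Ccl8 and Ccl1 in the GRCm38.p6 gene table. Ccl12 (2.19 to 3.00) and Ccl1 (2.43 to 2.90) were below 4 in all 36 arrays. Differences in response between neighbours of the run were not tested.

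Across the 36 arrays, which share treatments and windows, Ccl2 and Ccl7 correlated at r = 0.90. Ccl11 and Cx3cl1 correlated at 0.71, Ccl2 and Cx3cl1 at 0.66 and Ccl7 and Cx3cl1 at 0.56. The other tested genes most like Ccl2 were F3 (0.88) and Csrnp1 (0.88), and those most like Ccl7 were F3 (0.83) and Socs1 (0.75). Ccl8 was most like Tapbpl (0.92), Erap1 (0.92) and Il15ra (0.91). Ccl11 was most like Tifa (0.93), Pkig (0.92) and Cxcl9 (0.92), and Cx3cl1 most like Cish (0.92), Ifnar2 (0.90) and Mob3c (0.88). These are Pearson correlations given as descriptions. Ccl8 passed the filter level in 3 arrays and Ccl11 in 9, all under IFN gamma. Their correlations therefore rest on the arrays that let them into the test and on values near background elsewhere.

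Among 28 other chemokine ligands on the array, 7 passed the filter. Cxcl10, an interferon-induced attractant of T cells through CXCR3, rose in every window. Its difference from mock under IFN alpha was 4.45 ± 0.47 at 0-30 min, 7.35 at 30-60 min and 7.45 at 150-180 min, and under IFN gamma 3.17, 6.19 and 6.89. Cxcl9, which binds the same receptor, rose by 3.37 ± 0.48, 7.51 and 7.15 under IFN gamma in these windows and by 2.13 at 30-60 min under IFN alpha. Counting each window in the order 0-30, 30-60, 150-180 and 0-60 min, 1, 3, 1 and 2 of the 7 rose under IFN alpha and 2, 4, 3 and 3 under IFN gamma, and none fell. Of all tested genes, 0.377%, 2.4%, 2.58% and 1.91% were called higher under IFN alpha in that order, and 0.754%, 3.82%, 4.37% and 3.83% under IFN gamma. Of 10 CC and CX3C receptors on the array 1 passed the filter, and of 5 atypical receptors 2 did. None was called against mock under either interferon, where at most 4.37% of all genes were called higher.

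Of the fractalkine proteases, Adam17 fell by 0.55 ± 0.15 under IFN gamma at 30-60 min (limma adjusted p = 0.024) and Adam10 passed in no interferon comparison with mock. Among 5 tested interferon-activated transcription factors, 3, 4, 4 and 4 rose under IFN alpha in the same window order and 2, 4, 5 and 4 under IFN gamma. The shares of all genes given above apply to these and the following counts. Irf1, an early activator, rose by 2.15 ± 0.19 under IFN alpha and 5.14 ± 0.19 under IFN gamma at 0-30 min, and by 1.18 and 5.08 at 150-180 min. Of 17 NF-kB and AP-1 genes none was called under IFN alpha, where at most 2.58% of all genes were called higher. Under IFN gamma Atf3 rose at 30-60 min (1.08 ± 0.17) and Atf3, Jun and Nfkbiz at 150-180 min (1.69, 0.70 and 0.65). Of 5 factors that govern chemokine mRNA decay, Zfp36, which speeds the decay of AU-rich transcripts, rose by 1.05 to 1.33 in all 4 windows under IFN gamma and Zfp36l2 by 0.43 at 150-180 min, and none was called under IFN alpha.

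Macrophages are another source of these chemokines, and 7 of the 8 macrophage markers were below the filter. Their summed level, to which Cd14 contributes most, was 7.09 to 7.38 log2 under IFN alpha and 7.29 to 7.34 under IFN gamma at 0-30 min, against 7.37 to 7.43 under mock. At 30-60 min it was 6.45 to 6.49 under IFN alpha and 6.24 to 6.57 under IFN gamma, against 6.24 to 6.38 under mock, so the IFN alpha arrays lay above mock. At 150-180 min it was 6.60 to 6.82 under IFN alpha and 6.42 to 6.58 under IFN gamma, against 6.97 to 7.08 under mock, so both interferon groups lay below mock. Over 0-60 min it was 7.52 to 7.70 under IFN alpha and 7.14 to 7.62 under IFN gamma, against 7.47 to 7.70 under mock. Its part in the chemokine differences was not tested.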

How the data were processed

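RNA labelled with 4sU was measured on 36 arrays, 3 in each of 12 groups. Per the submitters' processing notes the authors processed the arrays with GCRMA, its version and any genome build not given in the sources used here. Their deposited table holds log2 values, whose scale was checked from their range (1.34 to 14.44 outside control probe sets) and array medians (3.13 to 3.27). The 64 control probe sets were left out; 34945 probe sets had 1 symbol, 932 several and 9160 none, and probe sets with several or none were not named. Of the 9549 symbols tested, 9515 matched a gene ID in GRCm38.p6, used for names and gene order.

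A probe set was kept where log2 passed 4 in at least 3 arrays. Each gene was read from the brightest of these by mean over all arrays. Group means of all 36 arrays were fitted with limma 3.58.1 (R 4.3.3), using lmFit and then eBayes(trend=TRUE). There were 24 residual degrees of freedom. The 18 comparisons were two-sided contrasts of group means, adjusted by Benjamini-Hochberg over all tested genes, and called under 0.05. The fit gives 1 spread per gene over all windows. Precision is limited by the number of arrays. The fit was also run on simulated data with independent arrays, which lack the shared deviations of same-numbered arrays described below. Figures used matplotlib 3.10.9.

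Arrays with the same number deviated together within a window in 9 of 9 pairs at 0-30 min (r 0.20 to 0.65), 30-60 min (0.32 to 0.69) and 0-60 min (0.18 to 0.67), which was taken as pairing from the data, and in 7 of 9 at 150-180 min (-0.29 to 0.69), which was not. The alternatives tried were a filter at 6 or none, adding 16 before log2, quantile normalisation, a common array median, testing every kept probe set, fitting the compared windows alone, the replicate block, and leaving out each array. The members, lists and tests were chosen with earlier results of these data known. Named genes were all members, up to 3 called genes per list with the largest change in a comparison plus Cxcl9 and Cxcl10, and the 3 genes most correlated with each tested member.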

Additional observations from a re-analysis of the deposited data

Results flagged for a closer look

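Some responses differed between windows by limma's test of the difference itself. From 30-60 to 150-180 min the Ccl2 response to IFN alpha was 1.45 ± 0.19 larger (adjusted p = 8.8e-06). In the same step the responses to IFN gamma were larger by 1.75 ± 0.19 for Ccl2 (adjusted p = 1.8e-07), 1.90 ± 0.43 for Ccl7 (0.0098) and 2.63 ± 0.33 for Ccl8 (2.4e-06). The response of Ccl11 to IFN gamma went the other way, with a difference of -1.36 ± 0.34 (0.023). From 0-30 to 30-60 min the Ccl11 response to IFN gamma was 2.54 ± 0.34 larger (adjusted p = 1.1e-05). Ccl8 entered the test only through its IFN gamma arrays of 150-180 min, and Ccl11 only through IFN gamma arrays. For both genes a difference under IFN gamma was a condition of being tested, so their p-values here are not independent of entry.

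In absolute level, Ccl2 averaged 12.67 under IFN alpha and 12.90 under IFN gamma at 150-180 min, below their own 30-60 min means of 13.34 and 13.28, while mock averaged 10.82 and 12.95 in those windows. Ccl7 averaged 11.50 under IFN alpha and 12.01 under IFN gamma at 150-180 min, below 12.12 and 12.34 at 30-60 min, while its mock averaged 9.26 and 11.48. The larger late differences of Ccl2 and Ccl7 therefore stand beside a lower mock level in that window, whose part in them was not tested. The Ccl8 mock mean was 2.65 in both windows.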

How the results depend on the processing

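No alternative turned the direction of a called difference. Counts of called members that moved by over 1.5 times were these. With array number as a replicate block, IFN alpha against mock called 2 members at 30-60 min and 1 over 0-60 min, IFN gamma against mock 4 at 30-60 min, and the IFN alpha response from 30-60 to 150-180 min 2 (Ccl2 and Ccl7); the block ended no call and changed no other count by that much. Fitted on the compared windows alone, IFN gamma against mock called 1 at 30-60 min and 1 over 0-60 min, and IFN alpha against IFN gamma 2 at 0-30 min and 1 over 0-60 min. At 0-30 min IFN gamma against mock called 0 without a filter and 1 over all kept probe sets. Leaving out 1 array gave 0 to 3 members for IFN gamma against mock at 0-30 min and 1 to 3 over 0-60 min, 0 to 1 for IFN alpha against IFN gamma at 0-30 min, and, from 30-60 to 150-180 min, 1 to 2 for the IFN alpha response and 2 to 4 for the IFN gamma response. The cause of these moves was not tested. The Ccl11 decline of the IFN gamma response was lost in 5 of 21 settings, without mock 30-60 min array 3, IFN gamma 30-60 min array 3, mock 150-180 min array 2 or 3, or IFN gamma 150-180 min array 2 (adjusted p = 0.061, 0.067, 0.06, 0.05 and 0.14). The larger late Ccl7 response to IFN gamma was lost without mock 30-60 min array 3 (0.054), and the Ccl7 response to IFN alpha in that step was 1.97 without mock 30-60 min array 2. Over all genes, the called counts with the block against those without were 1161 and 562 for IFN gamma at 30-60 min, 508 and 247 for IFN alpha at 30-60 min, 1136 and 564 for IFN gamma at 150-180 min, and 1949 and 643 for IFN gamma over 0-60 min; fitted on the 0-60 min arrays alone the last was 120, that for IFN alpha was 63 against 189, and that for IFN alpha against IFN gamma 76 against 383. Between windows the block gave 212 against 125 and 125 against 45 genes for the IFN alpha response, and 345 against 143 and 545 against 182 for the IFN gamma response. For the other comparisons the highest counts over the alternatives were 74 against 36 and 125 against 76 at 0-30 min, and 521 against 257 for IFN alpha at 150-180 min; for IFN alpha against IFN gamma they were 117 against 68, 986 against 544, 773 against 448 and 912 against 383 at 0-30, 30-60, 150-180 and 0-60 min. Without mock 0-60 min array 2, IFN alpha over 0-60 min called 803. Testing every kept probe set, which more than doubles the features, gave 12666 and 13818 calls against 5812 and 6123 for mock between windows. The split of calls for the IFN alpha response to 150-180 min was 91.1% higher, and as low as 79.6% under another scaling. The filter at 6 removed Ccl8. Leaving out mock 0-60 min array 1 in comparisons that do not use it, chosen after its values were seen, ended no call. Signal near background limits Ccl8 and Ccl11, whose mock levels are not measured levels.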

Other observations

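In mock arrays the NF-kB and AP-1 genes differed between windows, where time and the set of arrays cannot be told apart. At 30-60 min 4 of 17 were higher and 2 lower than at 0-30 min. At 150-180 min 14 of 17 were lower than at 30-60 min. The median difference in that step was -1.21, where the median of all genes was 0.55. The 5 mRNA decay factors had 3 higher in the first step and 4 lower in the second. Of all 9549 genes, 864 were called higher and 4948 lower in the first step, and 5097 higher and 1026 lower in the second.

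Set beside the 0-60 min label, the Ccl2 difference under IFN gamma was 0.58 at 0-30 min, 0.33 at 30-60 min and 0.33 over 0-60 min, and that of Ccl11 0.93, 3.47 and 3.19. The 0-60 min arrays used another 4sU concentration, so the windows differ in more than time.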
